A study of Mus musculus with 20 samples.

Results

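The effect of CMP013 on the liver transcriptome was compared between mice with and without the pregnane X receptor (PXR, gene Nr1i2). For each probe set, a group of short probes for 1 transcript on an Affymetrix mouse genome array, the response of PXR-knockout (PXR-KO) mice was taken away from that of wild type (WT) mice. All 20 of the 20 arrays of the series entered this comparison, 1 array per animal and 5 animals in each of 4 groups. The groups were WT mice given vehicle, WT mice given CMP013, PXR-KO mice given vehicle and PXR-KO mice given CMP013. CMP013 was given by oral gavage at 150 mg/kg/day, every 24 h, to male mice of 9 weeks of age, and livers were taken at 96 h after a short fast. WT mice were C57Bl/6 (PXR+/+). PXR-KO mice (PXR-/-) are named C57Bl/6NTac in the methods while the strain label reads C57BL/6, so receptor loss and any difference in background cannot be told apart. The knockout is present in every cell type, and each animal contributed 1 piece of whole liver.

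PXR is a nuclear receptor that is activated by many drugs and bile acids, pairs with the retinoid X receptor and switches on genes for drug oxidation, conjugation and transport in hepatocytes. The constitutive androstane receptor (CAR, gene Nr1i3) shares many of its target genes. Beyond drug metabolism, PXR is known to act on lipid synthesis, glucose production and inflammatory gene expression in liver. Knockout mice separate the part of a compound's effect that needs the receptor from the part that does not.

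Values are log2 ratios of the intensity of 1 animal to the average vehicle intensity in its genotype. A response is the mean of the CMP013 animals less the mean of the vehicle animals. The difference is positive where the response was higher in WT mice and negative where it was higher in PXR-KO mice. The levels of the 2 genotypes under vehicle cannot be compared on this scale, so a response that is smaller in 1 genotype and a level that already differed before treatment cannot be told apart. For the same reason the arrays give no check of the genotype labels. Nr1i2 itself was near 0 in CMP013-treated WT animals, at -0.21, 0.19, 0.15, 0.04 and 0.25, and between 0.32 and 0.66 in the 5 treated PXR-KO animals. By this probe set its difference was -0.39 (95% interval -0.69 to -0.09; limma adjusted p = 0.0919). By its other probe set the response was -0.29 in WT against 0.54 in PXR-KO mice, a gained rise with a called difference of -0.82 (limma adjusted p = 0.00362). Where the 2 probe sets lie relative to the deleted stretch was not known. Median log2 ratios of the 20 arrays lay between -0.03 and 0.01. RNA integrity numbers ran lower in the PXR-KO samples by the ranges in the methods, which overlap between genotypes. No value per array was given, and their part in the results was not tested.

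A difference was called at a limma adjusted p under 0.05 over all 45037 probe sets. This held at 4936 of them (11.0%), 2464 with the higher response in WT mice (5.47%) and 2472 with the lower (5.49%). Each called probe set was then placed by its response in each genotype, which was called by the same rule in WT mice at 6480 probe sets (14.4%) and in PXR-KO mice at 1645 (3.65%). A response was named lost where WT mice alone passed, gained where PXR-KO mice alone passed, weakened or strengthened where both passed in 1 direction, and reversed where both passed in opposite directions. Most differences were losses: 2992 probe sets (6.64%) for 2053 genes, of which 1689 had the higher response in WT mice and 1303 the lower. Gained responses followed with 539 probe sets (1.2%) for 394 genes, 344 of them higher in PXR-KO mice. Reversed responses numbered 125 (0.278%, 104 genes), weakened responses 32 (0.0711%, 23 genes) and strengthened responses 17 (0.0377%, 15 genes). At the remaining 1231 probe sets (2.73%) the difference passed but neither response did, and at 1230 of these the estimates of the genotypes had opposite signs. Among all 4936 the estimates were opposite in sign at 3781 (76.6%), and the difference was at least 2-fold at 1702. A call on the difference itself favours estimates of opposite sign, so these 2 sign counts hold for the chosen probe sets only. Over the 6480 probe sets called in WT mice, chosen without the difference, 59.6% of the PXR-KO estimates kept the WT direction. The treated animals of the genotypes did not overlap at 4659 of the 4936, against 8645 of all 45037 probe sets (19.2%). The call on the difference favours treated groups that lie apart too, so this count also holds for the chosen probe sets only. For the gene lists below each of 18193 genes was read from 1 probe set. On that basis a difference was called for 13.6% of genes (7.39% higher and 6.22% lower in WT mice), a WT response for 17.7% and a PXR-KO response for 4.64%. The classes held 8.45% of genes as lost, 1.53% as gained, 0.412% as reversed, 0.0879% as weakened, 0.0605% as strengthened and 3.06% as called in neither genotype.

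**Figure D1:**
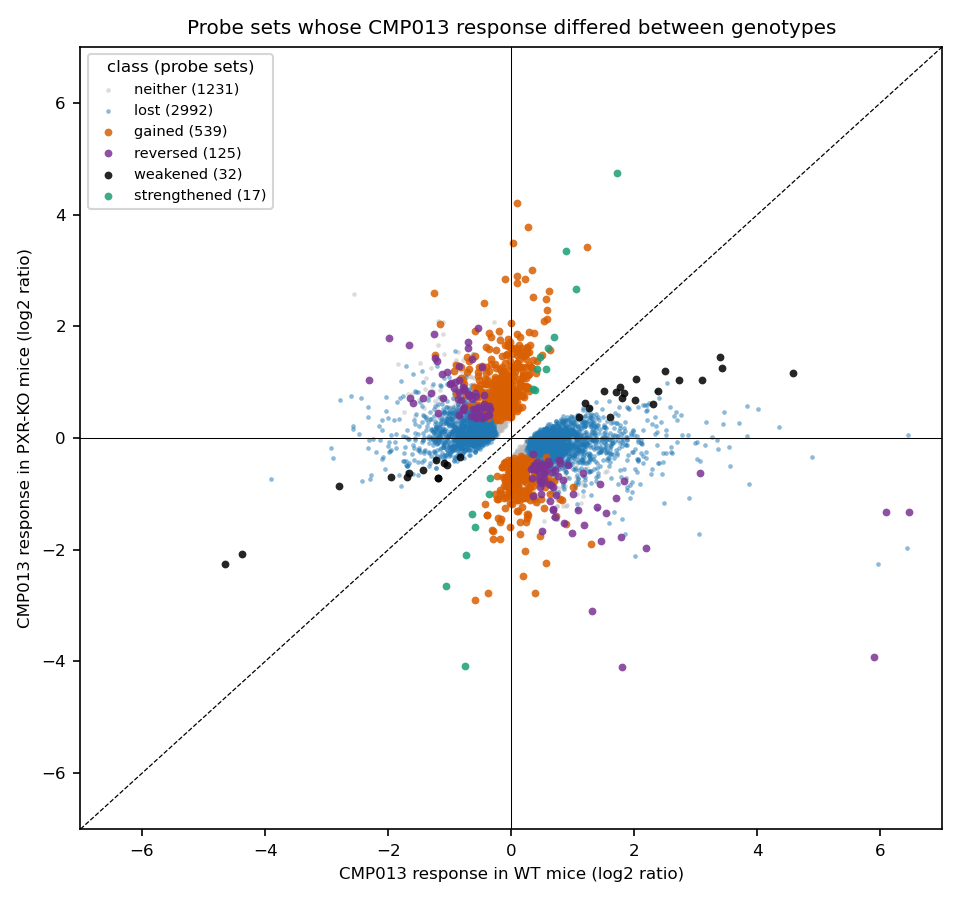
CMP013 response in WT mice (x axis) against that in PXR-KO mice (y axis), both as log2 ratios, for the 4936 probe sets whose responses differed, coloured by class. The dashed line marks equal responses. Of the 2992 lost responses 1708 lie close to the horizontal axis, and of the 539 gained ones 308 lie close to the vertical axis, with an estimate in the other genotype of at most 0.25 of the response in size. The 125 reversed ones lie in the quadrants of opposite sign.

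The class sizes did not rest equally on all animals. The lost count stayed between 2213 and 2912 when any 1 of the 20 animals was left out. The gained count fell to between 211 and 320, the reversed count to between 46 and 72 and the weakened count to between 10 and 19 without any 1 of PXR-KO vehicle replicates 2 to 5 or PXR-KO CMP013 replicates 1, 2 and 4, and the weakened and reversed counts were also lower without PXR-KO vehicle replicate 1 (17 and 74). The strengthened count ran from 6 to 11 without any 1 of WT vehicle replicates 1, 3, 4 and 5 or WT CMP013 replicates 2, 3 and 4, and was 27 without PXR-KO CMP013 replicate 5. Without the 4 vehicle animals that stand apart on these arrays (WT vehicle replicates 3 and 4, PXR-KO vehicle replicates 2 and 4), 2544 differences were called, 1505 of them lost, 117 gained and 16 reversed. The smaller classes also depended on the fit, since reversed responses numbered 8 after quantile normalization of the ratios and 7 with a replicate block, gained responses 169 and 48, weakened responses 2 in both fits and strengthened responses 3 and 6. With a variance prior that used limma's trend and robust options together all 4 of these classes were empty. After quantile normalization 1231 differences were called in all, 635 of them lost. Just inside the threshold lay Sash1 with a difference of -0.37, and just outside it Fam20b with -0.98.

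A response called lost was not always flat in PXR-KO mice. The PXR-KO estimate was between -0.25 and 0.25 of the WT response at 1708 of the 2992 lost probe sets (57.1%). At 1096 (36.6%) it ran against the WT response by more than that, and at 188 (6.28%) it kept between 0.25 and 0.5 of the WT response. Lost and gained probe sets were chosen in part by their difference, which favours opposite estimates, so these shares hold for the chosen sets only. The 95% interval of the PXR-KO response stayed within 0.32 of 0 at 790 of the 2992 (26.4%), and entirely on the opposite side of 0 at 476 (15.9%). Among gained responses the WT estimate was between -0.25 and 0.25 of the PXR-KO response at 308 of 539 (57.1%), and the WT interval stayed within 0.32 of 0 at 73 (13.5%) and lay on the opposite side of 0 at 79 (14.7%).

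Reversed responses took in a second drug receptor, enzymes of drug metabolism and lipid synthesis, and immediate early genes. Nr1i3, which encodes CAR, read -1.14, -0.49, -0.60, -0.92 and -0.16 in the 5 WT animals given CMP013 and 2.0, 1.67, 1.37, 1.61 and 1.34 in the 5 PXR-KO animals. Its vehicle animals lay between -0.24 and 0.21 in WT mice and between -0.22 and 0.31 in PXR-KO mice. All treated PXR-KO animals were therefore above every other animal, while the highest treated WT animal overlapped the WT vehicle range. The Nr1i3 response was -0.70 ± 0.18 (SE, n = 5 and 5) in WT against 1.60 ± 0.16 in PXR-KO mice, a difference of -2.31 (limma adjusted p = 8.25e-06). Ces2a, a carboxylesterase that hydrolyses ester drugs, moved the other way. Its treated WT animals read 1.70, 1.58, 1.71, 1.71 and 1.81, and its treated PXR-KO animals -1.68, -1.34, -0.46, -1.34 and -0.59. No vehicle animal of either genotype was beyond 0.12 in size for Ces2a, so the 3 sets of values did not touch. The difference was 2.78 (95% interval 2.28 to 3.28; limma adjusted p = 1.19e-06).

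Other drug metabolism genes among the reversed responses were Gstm6, a glutathione transferase, with responses of 1.0 and -1.0, and Cyp2c38, a P450 enzyme that fell by 0.91 and rose by 1.0. Cyp2c55 and Cyp2b10, P450 genes with WT rises of 5.90 and at least 6.47, fell in PXR-KO mice by 3.92 and 1.33. The Cyp2b10 rise is a lower bound, since 2 treated WT animals sat at the limit of the deposited scale. Lipid genes that rose in WT and fell in PXR-KO mice were Elovl6, a fatty acid elongase, Me1, the malic enzyme that supplies NADPH, Gpam, which starts triglyceride assembly, and Cyp4a12a, a fatty acid hydroxylase. Elovl6 read 0.91, 1.59, 1.39, 1.64 and 1.58 in treated WT animals and -2.15, -1.45, -1.12, -1.62 and -0.53 in treated PXR-KO animals, with vehicle animals between -0.51 and 0.41. The Elovl6 groups were thus in separate ranges in both genotypes (difference 2.88, limma adjusted p = 6.54e-05). The Me1 response was 0.50 in WT against -1.66 in PXR-KO mice, that of Gpam 0.48 and -0.76, and that of Cyp4a12a 0.49 and -0.99.

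Several regulators fell in WT mice and rose in PXR-KO mice. Egr1, an immediate early transcription factor, read -1.54, -1.47, -1.03, -1.36 and -1.75 in treated WT animals and 1.84, 2.38, 1.64, 2.32 and 0.67 in treated PXR-KO animals. Its vehicle animals were spread from -0.74 to 0.53 in WT and from -1.16 to 0.86 in PXR-KO mice, so the lowest treated PXR-KO animal overlapped its vehicle group. The difference was -3.10 (limma adjusted p = 0.000944). Id1, an inhibitor of helix-loop-helix factors, went from -0.54 in WT to 1.97 in PXR-KO mice, and Per1, a repressor of the circadian clock, from -0.86 to 0.83. Lbp, which binds bacterial lipopolysaccharide in plasma, had responses of -0.70 and 1.72, and is named here after its values were seen. Cib3, a calcium-binding protein gene, fell by 1.98 in WT and rose by 1.80 in PXR-KO mice. Ccna2 and Ube2c, which serve the cell cycle, had the opposite pattern, with responses of 0.80 and 1.39 in WT against -0.45 and -1.24 in PXR-KO mice.

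Some of the largest differences could not be assigned to the gene as a whole, because its other probe sets did not follow. Among genes with a reversed probe set, the direction of the difference was shared by 5 of 11 probe sets of Ighm, of which 2 were reversed, by 2 of 4 of Lhx9 and by 2 of 3 of Ska1. The same held for the lost probe sets of Pibf1 (1 of 3) and Dcaf12 (1 of 4), and for the gained one of Scn2a (2 of 4). Some other genes described here kept the direction but not the class. Probe sets called lost were also found for Elovl6, Ccna2 and Cyp2b10 beside the reversed one and for Serpina12 and Slc48a1 beside the weakened one. Lbp had a gained probe set beside the reversed one, and Gpam one called in neither genotype.

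Among lost responses the proteasome, the complex that degrades ubiquitin-tagged proteins, had a high share of called genes. Of 36 measured genes for its subunits, activators and assembly factors, 33 (91.67%) differed, against 13.6% of 18193 genes measured by 1 probe set each, and all 33 were higher in WT mice and lost in PXR-KO mice. In WT mice 35 of the 36 rose and in PXR-KO mice none of the 36 passed in either direction. The median response was 0.69 in WT against 0.03 in PXR-KO mice. Psmb2, a subunit of the catalytic ring, read 0.86, 1.00, 0.74, 0.92 and 1.00 in treated WT animals and 0.05, -0.07, 0.11, -0.01 and -0.02 in treated PXR-KO animals, whose vehicle animals ran from -0.12 to 0.09. Treated PXR-KO animals thus overlapped their vehicle group almost entirely, while no treated WT animal came near it (difference 0.89, limma adjusted p = 2.43e-05). Psmb3, another ring subunit, Psmc4, an ATPase of the cap, and Psmd14, the cap's deubiquitinase, had differences of 0.95, 0.95 and 1.01. Psma7, of the outer ring, kept a larger PXR-KO estimate, 0.31 against 1.14 in WT mice. The 3 genes without a called difference by the probe set read were Psmb1 (0.57 in WT against 0.21 in PXR-KO mice), Psmd8 (0.49 and 0.34) and Psmb10, a subunit induced by interferon (0.27 and 0.28). Another probe set of Psmb1 was called lost (0.56 and -0.03). With the mean over all probe sets of each gene 26 of the 36 differed, without the 4 vehicle animals 28, and after quantile normalization 20, all higher in WT mice.

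Lost rises were found among genes of drug conjugation and of the supply of glutathione and NADPH. Of 46 conjugating enzymes 17 differed (36.96%), 14 of them higher in WT mice and 13 lost. In WT mice 17 of the 46 rose and 8 fell, and in PXR-KO mice 5 rose and 5 fell. The smallest limma adjusted p for the difference in this list belonged to glutathione transferases. They were Gstm3, with responses of 3.44 in WT against 0.24 in PXR-KO mice, Gstm2 (2.37 and 0.11), Gsta4 (2.19 and -0.25) and Gstm4 (2.04 and -0.60). These transferases have close relatives whose transcripts a probe set may share. Papss2, which makes the sulfate donor, and Ugdh, which makes the glucuronic acid donor, had WT responses of 1.14 and 1.29 and PXR-KO estimates of -0.07 and 0.29. Nnmt, a methyltransferase for nicotinamide, ran against the list as a gained rise of 1.27 in PXR-KO mice.

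Gsr, the reductase that regenerates glutathione, was a lost rise with little spread. It read 1.80, 2.02, 1.77, 1.88 and 1.96 in treated WT animals and -0.12, -0.08, 0.11, 0.04 and -0.04 in treated PXR-KO animals, while the 10 vehicle animals lay between -0.10 and 0.13. The treated PXR-KO animals overlapped the vehicle range, 1 of them just below it, and the treated WT animals lay far above. The Gsr response was 1.88 ± 0.08 in WT against -0.02 ± 0.09 in PXR-KO mice, and the 95% interval of the latter, -0.21 to 0.17, stayed within 0.32 of 0 (difference 1.90, limma adjusted p = 5.45e-09). Pgd and Taldo1, enzymes of the pentose phosphate pathway that yields NADPH, rose by 1.15 and 0.29 in WT mice with PXR-KO estimates of -0.45 and -0.35, and Tkt of the same pathway 0.43 and -0.38. Of 23 measured targets of the oxidative stress factor Nrf2 and glutathione genes, 10 differed (43.48%), 8 higher in WT mice. Txn1, thioredoxin, was among them at 0.50 and 0.06. The median difference of the 23 was only 0.07, and 12 of them rose in WT and 5 in PXR-KO mice. After quantile normalization 4 of the 23 were higher and 1 lower in WT mice, without Txn1, Tkt and Mt2. Those that ran the other way were Hmox1, described with the gained responses, and Mt2, a metal-binding protein gene, which fell by 1.2 in WT mice and had an estimate of 1.28 ± 0.56 in PXR-KO mice.

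Of 39 drug-metabolizing P450 genes 14 differed (35.9%), 9 higher and 5 lower in WT mice, and 10 of the 14 were lost. Cyp3a11, the main drug oxidase induced through PXR in mouse liver, rose by 0.64 in WT mice and had an estimate of -0.12 in PXR-KO mice, while Cyp3a44 had 1.69 and -0.06 and Cyp2c29 had 0.49 and -0.67. Of 43 other phase I enzymes 18 differed (41.86%), 14 of them higher in WT mice. Lost members of this list were Cbr1, a carbonyl reductase (1.35 and 0.22), Aldh1a7, an aldehyde dehydrogenase (0.82 and -0.03), Ephx1, which opens epoxides (1.03 and 0.25), and Ces2g, a carboxylesterase (0.87 and -0.57). Of 24 hepatic transporters 7 differed (29.17%), with lost rises at Abcc2 and Abcc3, export pumps for conjugates, of 0.94 and 1.28 in WT against 0.11 and 0.42 in PXR-KO mice. Slc22a18, an organic cation transporter, had 1.33 and -0.03, and Abcg2, an export pump, was a gained fall of 0.35. After quantile normalization 2 of the 24 transporters differed, without Abcc3 and Abcg2, and 7 P450 genes were higher and 1 lower in WT mice. The calls at Cbr1 and Nnmt were lost as well (limma adjusted p = 0.0569 and 0.0912). Among 18 bile acid genes 4 differed (22.22%). They were Akr1d1, which reduces bile acid precursors (1.47 and 0.00), Klb, the coreceptor of fibroblast growth factors (-1.01 and -0.15), and 2 gained responses described below. The call at Klb was lost without the 4 vehicle animals and after quantile normalization (limma adjusted p = 0.174 and 0.258).

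Of 34 measured mitotic genes 13 rose and 0 fell in WT mice, while 0 rose and 2 fell in PXR-KO mice. Of the same 34 genes 13 differed (38.24%), all higher in WT mice, and 10 of the 13 were lost. The median response of the 34 was 0.48 in WT against -0.31 in PXR-KO mice. Mki67, a marker of dividing cells, read 1.51, 2.77, 2.04, 1.31 and 0.71 in treated WT animals and -2.63, -0.62, -2.55, -1.91 and -0.79 in treated PXR-KO animals. Its vehicle animals were scattered, from -1.60 to 0.86 in WT and from -0.78 to 0.41 in PXR-KO mice, and overlapped the treated animals in each genotype, whereas the treated groups lay apart from each other. The Mki67 difference was 3.57 (95% interval 2.16 to 4.99; limma adjusted p = 0.00202). Ccnb2, a mitotic cyclin, had responses of 1.96 in WT against -0.96 in PXR-KO mice, Birc5, which guards chromosome segregation, 1.77 and -0.57, Ect2, which drives cytokinesis, 2.02 and -0.55, and Cdk1, the mitotic kinase, 1.67 and -0.36. Of 44 genes of the G1/S transition and DNA replication 9 differed (20.45%), again all higher in WT mice. In WT mice 15 of the 44 rose and 3 fell, and in PXR-KO mice 1 rose and 3 fell. Among those that differed were Mcm2 and Mcm6 of the replicative helicase at 1.68 and 1.95 in WT against 0.06 and 0.10 in PXR-KO mice. Without the 4 vehicle animals the calls at Cdk1 and Mcm6 were lost (limma adjusted p = 0.0837 and 0.0584), and 10 of the 34 mitotic and 4 of the 44 replication genes differed. After quantile normalization 7 and 3 did, without Cdk1, Mcm2 and Mcm6.

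The promoters of 3 mitotic genes are shown because these genes moved together and hold the letters that mark many cell cycle promoters. The sequences are the 250 bases before the start site from RefSeq, build GRCm38.p6, written 5′ to 3′ on the strand of the gene. Capitals mark CCAAT and TTTGAA on either strand, so ATTGG and TTCAAA are capitals too. Ube2c is at chr2:164769679-164769928 on the plus strand, Cdc20 at chr4:118437344-118437593 on the minus strand and Cdk1 at chr10:69352913-69353162 on the minus strand.
Ube2c: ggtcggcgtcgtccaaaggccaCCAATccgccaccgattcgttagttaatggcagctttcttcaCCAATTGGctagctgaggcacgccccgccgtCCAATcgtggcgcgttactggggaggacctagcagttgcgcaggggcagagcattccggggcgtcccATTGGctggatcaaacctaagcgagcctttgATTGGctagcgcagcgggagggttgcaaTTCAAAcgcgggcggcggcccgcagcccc
Cdc20: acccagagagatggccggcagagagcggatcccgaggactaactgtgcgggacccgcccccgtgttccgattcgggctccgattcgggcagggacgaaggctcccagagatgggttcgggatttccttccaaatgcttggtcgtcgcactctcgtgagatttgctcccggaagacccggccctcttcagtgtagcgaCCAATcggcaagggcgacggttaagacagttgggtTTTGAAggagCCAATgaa
Cdk1: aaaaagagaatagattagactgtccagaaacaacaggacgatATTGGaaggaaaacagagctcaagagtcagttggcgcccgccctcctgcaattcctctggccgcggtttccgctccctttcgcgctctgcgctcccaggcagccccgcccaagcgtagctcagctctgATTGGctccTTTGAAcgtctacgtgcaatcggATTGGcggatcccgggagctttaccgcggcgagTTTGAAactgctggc
Ube2c was the reversed mitotic gene, and Cdc20, an activator of the anaphase complex, and Cdk1 were lost. Cdc20 responded by 1.09 in WT against -0.39 in PXR-KO mice, and 2 of its 3 probe sets had this direction. CCAAT was present in 21 of the 28 measured mitotic genes with a promoter in the table (75.0%) and in 37.5% of all 27025 genes, and TTTGAA in 10 of 28 (35.7%) and in 18.3% of all. The 10 mitotic genes with TTTGAA had a median difference of 1.76, with 7 of 10 called, and the 18 without it a median of 0.58, with 4 of 18 called. The split by CCAAT ran the other way, with a median difference of 0.62 and 8 of 21 called among genes that hold it, and 0.72 and 3 of 7 among those that do not.

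Interferon-stimulated genes had a median difference of 0.88, with median responses of 0.67 in WT against -0.11 in PXR-KO mice. Of 26 measured genes 13 differed (50%), all higher in WT mice, and 10 were lost. Ifit1, which binds foreign RNA, read 1.96, 1.29, 3.07, 1.53 and 2.31 in treated WT animals and -0.39, -0.86, -0.30, -0.22 and -0.28 in treated PXR-KO animals. Its vehicle animals lay between -0.38 and 0.33 (WT) and between -0.13 and 0.24 (PXR-KO), so treated animals were above the vehicle range in WT and below it in PXR-KO mice. The PXR-KO response, -0.42, did not pass on its own (limma adjusted p = 0.123), while the difference of 2.48 did (limma adjusted p = 0.00014). Ifit3, Rsad2 and Oasl1, antiviral effectors of the same family of targets, had WT responses of 1.40, 1.64 and 1.83 and PXR-KO estimates of -0.54, -0.08 and 0.17. Usp18, which damps interferon signaling, had 1.41 and -0.05, and Irf7, a transcription factor of the pathway, 0.83 and -0.25. Bst2, which tethers viral particles, had 0.45 and -0.54. Tap1, a peptide transporter for antigen presentation, was instead a gained fall of 0.58, and 3 of its 4 probe sets had this direction of difference, while their mean was not called (limma adjusted p = 0.214). Without the 4 vehicle animals 7 of the 26 differed and after quantile normalization 8, all higher in WT mice, and without those animals the calls at Usp18, Irf7 and Tap1 were lost (limma adjusted p = 0.0611, 0.0531 and 0.0676).

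The promoters of 3 of these genes are shown because a short element is known to tie interferon targets together. They are again the 250 bases before the start site from RefSeq, build GRCm38.p6, on the strand of the gene, with capitals for the core of the interferon-stimulated response element (GAAA, any 2 bases and again GAAA) on either strand. Ifit1 is at chr19:34640639-34640888 on the plus strand, Ifit3 at chr19:34583279-34583528 on the plus strand and Rsad2 at chr12:26456453-26456702 on the minus strand.
Ifit1: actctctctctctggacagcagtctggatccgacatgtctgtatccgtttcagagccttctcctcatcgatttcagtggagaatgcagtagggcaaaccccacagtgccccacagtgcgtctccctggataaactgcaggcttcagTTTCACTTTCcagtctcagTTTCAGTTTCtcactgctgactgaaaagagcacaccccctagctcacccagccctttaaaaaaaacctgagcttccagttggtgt
Ifit3: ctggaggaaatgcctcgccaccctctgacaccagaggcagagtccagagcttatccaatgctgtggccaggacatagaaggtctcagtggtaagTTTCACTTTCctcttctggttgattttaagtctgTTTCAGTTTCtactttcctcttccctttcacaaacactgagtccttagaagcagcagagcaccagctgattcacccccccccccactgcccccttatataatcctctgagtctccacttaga
Rsad2: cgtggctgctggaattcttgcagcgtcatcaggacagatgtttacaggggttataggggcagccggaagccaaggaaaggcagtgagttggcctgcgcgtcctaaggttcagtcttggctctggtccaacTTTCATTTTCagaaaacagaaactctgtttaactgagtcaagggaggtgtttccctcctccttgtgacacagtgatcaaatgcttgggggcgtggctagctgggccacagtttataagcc
The element was present in 11 of 22 measured interferon genes with a promoter in the table (50%) and in 3.46% of all 27025 genes. The 11 genes with it had a median response of 0.96 in WT against 0.04 in PXR-KO mice, with 6 of 11 differences called, and the 11 without it 0.37 and -0.24, with 5 of 11 called. Letters in a promoter are a description and not a measured binding site. The pairs of element and list shown were picked from a wider scan. Direct repeats of AGNTCA (N, any base), 3 or 4 bases apart, and everted ones, 6 apart, were in 0 mitotic, interferon, proteasome or Nrf2 promoters. They are rare, in at most 0.122% of all genes. The antioxidant element core, TGACNNNGC, was in 4 of 29 proteasome promoters (13.8%), 5 of 20 Nrf2 promoters and 11.5% of all. CCAAT was also in 11 of 29 proteasome, 10 of 22 interferon and 10 of 20 Nrf2 promoters.

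Of 33 measured genes for plasma proteins of the acute phase and complement, 15 fell and 5 rose in WT mice, while 2 fell and 3 rose in PXR-KO mice. The difference was called for 17 of the 33 (51.52%), 15 of them lower in WT mice, and 13 of the 17 were lost. After quantile normalization 6 were lower and 2 higher in WT mice. Lrg1, a secreted glycoprotein, read -1.39, -2.32, -1.65, -1.85 and -2.37 in treated WT animals and 0.62, 0.38, 0.12, 0.35 and 0.22 in treated PXR-KO animals, with vehicle animals between -0.28 and 0.45. Treated WT animals were far below every other animal, and the treated PXR-KO animals overlapped their vehicle group (difference -2.23, limma adjusted p = 1.25e-05). Saa1, an acute phase apolipoprotein, fell by 1.44 in WT mice with an estimate of 1.2 ± 0.45 in PXR-KO mice, and Hamp, which encodes the iron hormone hepcidin, fell by 1.04 with an estimate of 0.13. Cfb of the complement, the protease inhibitor gene Serpina3n and Itih3, of the hyaluronan-binding inhibitors, fell by 0.52, 0.50 and 0.62 in WT mice, with estimates of 0.37, 0.38 and 0.30 in PXR-KO mice. The call at Serpina3n was lost without the 4 vehicle animals (limma adjusted p = 0.0634), and those at Serpina3n and Saa1 after quantile normalization (0.123 and 0.153). C2 of the complement was an exception, with responses of 1.01 and -0.08. Nfkbia, the inhibitor of NF-kB and one of its targets, fell by 0.98 in WT mice against an estimate of 0.05, and of 20 NF-kB genes 6 differed (30%), 4 of them higher in WT mice. With the 4 vehicle animals left out 1 of the 20 was higher and 1 lower, and after quantile normalization 1 was lower and 0 higher.

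Lost falls also took in genes of glucose production and of growth hormone signaling. All 6 of 19 glucose genes that differed (31.58%) were lower in WT mice and lost. Ppargc1a, a coactivator of fasting metabolism, had responses of -2.24 ± 0.49 in WT against -0.02 ± 0.29 in PXR-KO mice, Ldha, lactate dehydrogenase, -0.80 and 0.00, and Slc2a2, the glucose transporter of hepatocytes, -0.42 and 0.08. Without the 4 vehicle animals 2 of the 19 differed and after quantile normalization 1, and without those animals the call at Ppargc1a was lost (limma adjusted p = 0.145), as it was with the mean over its 5 probe sets (0.0902). Of 19 growth hormone targets 5 differed (26.32%), 4 lower and 1 higher in WT mice, and 3 were lost. Among them were Igf1, which encodes the circulating growth factor, at -0.80 in WT against 0.00 in PXR-KO mice and Igfals, its carrier, at -1.2 and -0.01. Falls in this list were not confined to WT mice, since 8 of the 19 fell there and 5 fell in PXR-KO mice. The median responses were -0.68 and -0.35. Among 35 nuclear receptors and coregulators 6 differed (17.14%), a share near the background. Hnf4a, a factor of hepatocyte identity, fell by 0.45 in WT mice with an estimate of 0.37 in PXR-KO mice, and Ppara, which drives fatty acid oxidation, by 0.48 with an estimate of 0.12. The difference was called at 1 of 4 probe sets of Hnf4a and at 1 of 3 of Ppara, though all had the same direction. At the other Hnf4a probe sets the PXR-KO estimates lay between -0.08 and 0.04. The call at Ppara was lost without the 4 vehicle animals (limma adjusted p = 0.0688). After quantile normalization the calls at Slc2a2, Ppargc1a, Hnf4a and Ppara were lost (limma adjusted p = 0.0657, 0.059, 0.0635 and 0.168), and 1 of the 35 nuclear receptors and 3 of the 19 growth hormone targets differed. Of 23 cholesterol genes 6 differed (26.09%), all higher in WT mice, among them Mvd, of the mevalonate pathway, at 1.35 and -0.20 and Insig2, which holds back cholesterol synthesis, at 0.41 and -0.64. With the 4 vehicle animals left out 3 of the 23 differed and after quantile normalization 1, and the call at Mvd was then lost (limma adjusted p = 0.131).

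**Figure D2:**
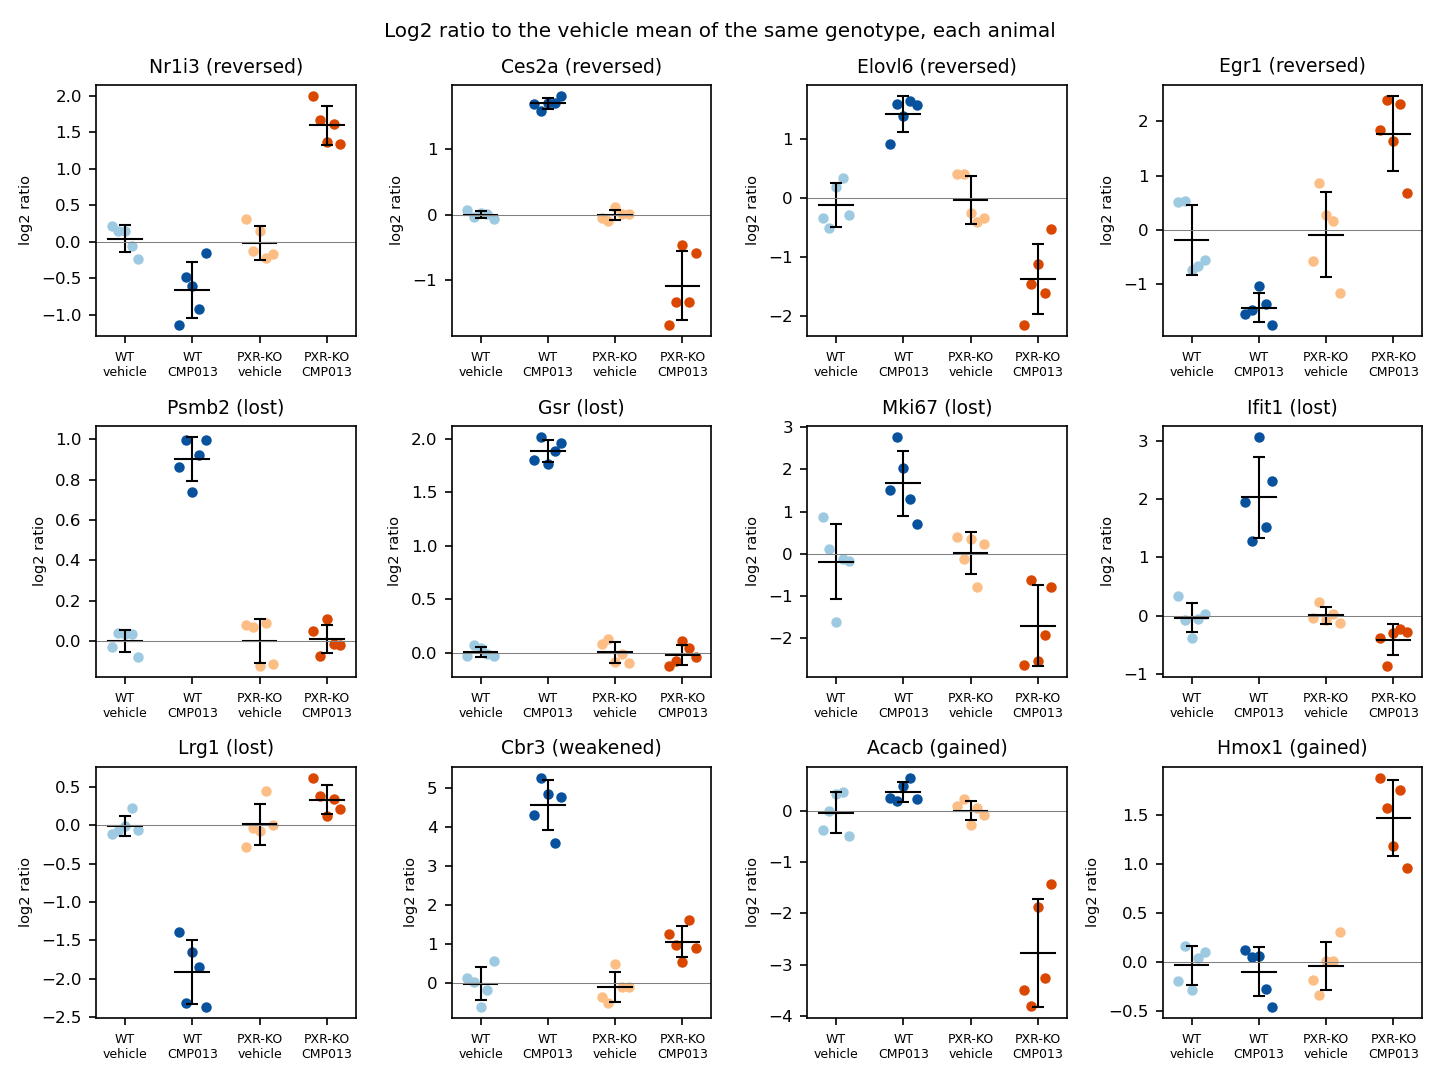
Log2 ratio to the vehicle mean of the same genotype (y axis) for each of the 5 animals of the 4 groups (x axis) at 12 genes, with the class in the panel title. Bars are the mean and its SD over 5 animals. Gsr and Psmb2 rose in WT animals alone, Acacb fell and Hmox1 rose in PXR-KO animals alone, and Nr1i3, Ces2a, Elovl6 and Egr1 moved in opposite directions.

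Weakened responses, called in both genotypes but smaller in PXR-KO mice, were few, 32 probe sets. Cbr3, a carbonyl reductase, read 4.32, 5.26, 4.86, 3.58 and 4.77 in treated WT animals and 1.24, 0.97, 0.55, 1.61 and 0.90 in treated PXR-KO animals. Its vehicle animals lay between -0.62 and 0.55 (WT) and between -0.51 and 0.49 (PXR-KO), so the lowest treated PXR-KO animal stood just above its vehicle group. The Cbr3 response was 4.58 ± 0.31 in WT against 1.17 ± 0.23 in PXR-KO mice, a difference of 3.41 (95% interval 2.56 to 4.26; limma adjusted p = 2.99e-05). With limma's trend option alone this call was lost (limma adjusted p = 0.289). Psat1, of serine synthesis, had 3.10 and 1.04, Slc48a1, a heme transporter, 2.31 and 0.60, and Srxn1, which repairs oxidized peroxiredoxins, 2.39 and 0.85 by 1 of its 4 probe sets, of which 2 were weakened and the one read for the Nrf2 list was lost. Esr1, the estrogen receptor, rose by 1.80 in WT and by 0.72 in PXR-KO mice, and its call was lost after quantile normalization (limma adjusted p = 0.105). Serpina12, a serpin also made in fat, was a weakened fall. It read -2.09, -3.93, -2.19, -2.75 and -3.08 in treated WT animals and -0.72, -0.89, -0.99, -1.04 and -0.58 in treated PXR-KO animals, with no overlap between any treated and vehicle group. The Serpina12 difference was -1.95 (limma adjusted p = 0.00167).

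Gained responses included falls of lipid synthesis genes and rises of genes of macrophages. Of 25 measured fatty acid synthesis genes 10 differed (40%), all higher in WT mice, with 3 reversed, 4 lost and 2 gained. The median response of the 25 was 0.27 in WT against -0.63 in PXR-KO mice. In PXR-KO mice 9 of the 25 fell and 1 rose. Acacb, the acetyl-CoA carboxylase of mitochondria, read 0.24, 0.19, 0.49, 0.64 and 0.24 in treated WT animals and -3.49, -3.80, -1.88, -3.26 and -1.42 in treated PXR-KO animals. Its vehicle animals lay between -0.49 and 0.37 (WT) and between -0.28 and 0.23 (PXR-KO), so treated WT animals overlapped their vehicle group and treated PXR-KO animals were all far below theirs. The Acacb difference was 3.17 (95% interval 2.14 to 4.20; limma adjusted p = 0.000388). The other probe set of Acacb did not follow, with estimates of 0.11 in WT against 0.10 in PXR-KO mice (difference 0.01, limma adjusted p = 0.993). Acss2, which makes acetyl-CoA from acetate, was the other gained fall of the list, at 0.27 in WT against -1.37 in PXR-KO mice. Its other probe sets were called in neither genotype (0.07 and -0.93) or lost (2.15 and 0.58), all with the higher response in WT mice. Fasn, fatty acid synthase, Pnpla3 and Pnpla5, lipases of the patatin family, rose in WT mice by 0.64, 1.41 and 1.29, with estimates of -0.97, -0.63 and -1.02 in PXR-KO mice. In the fit without the 4 vehicle animals 10 of the 25 were called.

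Further gained falls were at Cyp26a1, which clears retinoic acid (1.29 in WT against -1.89 in PXR-KO mice), at Ces2b, a carboxylesterase (0.47 and -1.75), and at Cyp8b1, which sets the make-up of bile acids (0.23 and -0.94). Cyp39a1, another enzyme of bile acid synthesis, was a gained rise of 1.64, and its call was lost without the 4 vehicle animals (limma adjusted p = 0.0801). Hmox1, the enzyme that breaks down heme, read 0.13, 0.05, 0.06, -0.27 and -0.46 in treated WT animals and 1.88, 1.57, 1.18, 1.76 and 0.96 in treated PXR-KO animals, with vehicle animals between -0.34 and 0.30. All treated PXR-KO animals were above every other animal (difference -1.57, limma adjusted p = 0.000397). Saa3, an inducible acute phase gene, had an estimate of -0.58 in WT and rose by 1.91 in PXR-KO mice, Fmo2, a flavin monooxygenase, had -0.10 and 2.85, and Fos, an immediate early factor, 0.10 and 2.90. Saa3 and Fos are named here after their values were seen.

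Of 21 genes of macrophage activation 9 differed (42.86%), 7 of them lower in WT mice, and the median response was 0.07 in WT against 0.40 in PXR-KO mice. Lgals3, a lectin of activated macrophages, rose by 2.09 in PXR-KO mice with an estimate of 0.54 in WT mice, and Cd68, a lysosomal marker of macrophages, by 1.11 with an estimate of 0.19. Lpl, lipoprotein lipase, fell by 0.77 in WT mice with an estimate of 0.64 in PXR-KO mice, and Ctsd, a lysosomal protease, was a lost rise of 0.76. Fabp5, a fatty acid binding protein and also on this list, ran the other way, since it fell by 2.89 in PXR-KO mice alone, with an estimate of -0.59 in WT mice, a difference of 2.30 (limma adjusted p = 5.92e-05), and its second probe set was called strengthened. After quantile normalization 4 of the 21 were lower and 1 higher in WT mice, without Lpl and Ctsd. The call at Lpl was lost without the 4 vehicle animals (limma adjusted p = 0.0687). In whole liver, a change in the number of cells of a type and a change in RNA per cell cannot be told apart. Macrophage markers are given with the other cell types below, and their part in these rises was not tested.

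Strengthened responses numbered 17 probe sets. Vcam1, an adhesion molecule for leukocytes, read 0.32, 0.65, 0.75, 0.41 and 0.45 in treated WT animals and 1.2, 1.40, 1.42, 1.71 and 1.55 in treated PXR-KO animals. Its vehicle animals reached 0.34 in WT against 0.39 in PXR-KO mice, so the lowest treated WT animal overlapped its vehicle group and no treated PXR-KO animal did. The Vcam1 response was 0.47 ± 0.12 in WT against 1.44 ± 0.16 in PXR-KO mice (difference -0.98, limma adjusted p = 0.00334). The other 2 of its 3 probe sets were called gained, with WT estimates of 0.05 and -0.06 and PXR-KO rises of 1.26 and 1.77. Ildr2, a membrane protein of liver lipid handling, rose by 0.90 in WT and by 3.34 in PXR-KO mice.

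Where neither response passed alone, opposite tendencies added up. Cyp4a14, a fatty acid hydroxylase induced through PPAR alpha, read -4.60, -1.69, -4.42, -2.18 and -1.40 in treated WT animals and 2.33, -0.43, 1.83, 2.07 and 1.09 in treated PXR-KO animals. Its vehicle animals were as scattered, at 0.85, -1.10, 0.98, -1.45 and -0.84 in WT mice, and at 1.92, -0.37, -1.34, -3.75 and -2.44 in the knockout, and overlapped the treated animals in both. The estimates were -2.55 ± 0.77 in WT against 2.57 ± 0.96 in PXR-KO mice, with limma adjusted p of 0.0515 and 0.171, while the difference of -5.12 (95% interval -7.84 to -2.40) passed at 0.0155. That call was lost without the 4 vehicle animals (limma adjusted p = 0.0825). After quantile normalization the calls at Cyp4a14, Enho, Ankrd1 and Nuf2 were all lost (limma adjusted p = 0.0927, 0.0839, 0.0944 and 0.0673). Enho, which encodes a secreted peptide of energy balance, had estimates of -1.49 and 1.34, and Igsf6, an immunoglobulin family gene of myeloid cells, -1.08 and 1.5. Ankrd1, a muscle and stress protein gene, and Nuf2, of the kinetochore, had the opposite signs, at 1.16 and -1.04 and at 0.89 and -1.21. The direction of the difference was shared by 3 of 4 probe sets of Enho. The other probe set of Ankrd1 had a difference of 0.03 (limma adjusted p = 0.95). Of 42 genes of fatty acid oxidation and PPAR alpha targets 7 differed (16.67%), close to the background of 13.6%, and without the 4 vehicle animals 2 did and after quantile normalization 1. Of the lists not yet described, 11 of 42 genes of the endoplasmic reticulum stress and ATF4 response differed (8 higher and 3 lower in WT mice), 4 of 21 tRNA synthetases (all higher), 7 of 23 genes of growth arrest and apoptosis (3 higher and 4 lower), 3 of 17 clock genes (all lower) and 1 of 10 genes of heme synthesis (higher). In the fit without the 4 vehicle animals 4 stress genes were higher and 3 lower, 1 tRNA synthetase was higher, 1 apoptosis gene was higher and 1 lower, and 1 clock gene was lower. After quantile normalization 3 stress genes were higher and 2 lower, 0 tRNA synthetases and 0 heme genes differed, and the apoptosis and clock counts were as without those animals. With the mean over all probe sets of each gene 5 stress genes were higher and 6 lower, so the lean to WT mice did not hold there. In that fit 2 tRNA synthetases were higher, and 3 apoptosis genes were higher and 5 lower.

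**Figure D3:**
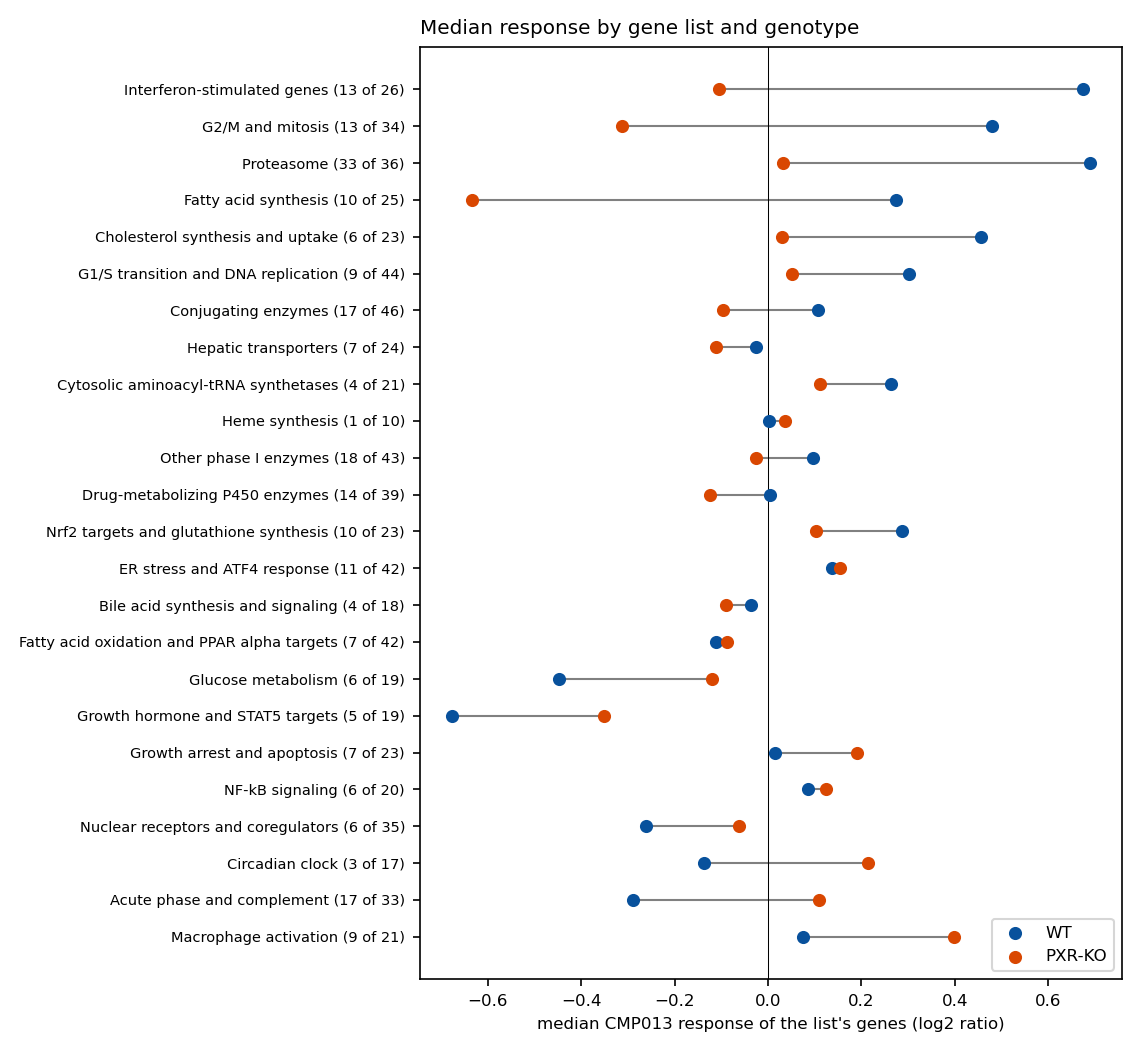
Median CMP013 response of each of 24 pathway lists (x axis, log2 ratio) in WT (blue) and PXR-KO (orange) mice, ordered by the median difference, with the number of genes whose difference was called and the number measured beside each name. The WT median lies well above the PXR-KO median for fatty acid synthesis (0.27 against -0.63), mitosis (0.48 and -0.31), interferon-stimulated genes (0.67 and -0.11) and the proteasome (0.69 and 0.03), and below it for the acute phase (-0.29 and 0.11).

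The same question can be put to all probe sets that responded in 1 genotype. Over the 6480 probe sets called in WT mice, the median response was 0.64 in WT mice and, taken in the direction of the WT response, 0.06 in PXR-KO mice, with 59.6% of the PXR-KO estimates in that direction. By single animal this share was 56.6% to 60.4% in treated PXR-KO animals and 42.0% to 59.1% in vehicle animals, so the shares overlapped. The slope of PXR-KO on WT responses through 0 was 0.12. Taken animal by animal, the 5 treated PXR-KO animals had slopes of 0.11 to 0.13 on the WT response, against 0.92 to 1.05 for treated WT animals each set against the mean of the rest, and -0.02 to 0.08 for the 10 vehicle animals. By slope, treated PXR-KO animals were thus a little above the vehicle animals and far below the treated WT animals, without overlap. In the other direction, over the 1645 probe sets called in PXR-KO mice, the median was 0.77 in PXR-KO and 0.18 in WT mice, 64.0% of the WT estimates kept the direction and the slope was 0.27. The treated WT animals had slopes of 0.23 to 0.40, and the vehicle animals -0.08 to 0.12. Their shares in the PXR-KO direction overlapped, at 59.2% to 71.7% and 34.7% to 62.7%. The treated animals of the calling genotype helped to choose these probe sets, so their slopes near 1 are a yardstick and not a result.

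**Figure D4:**
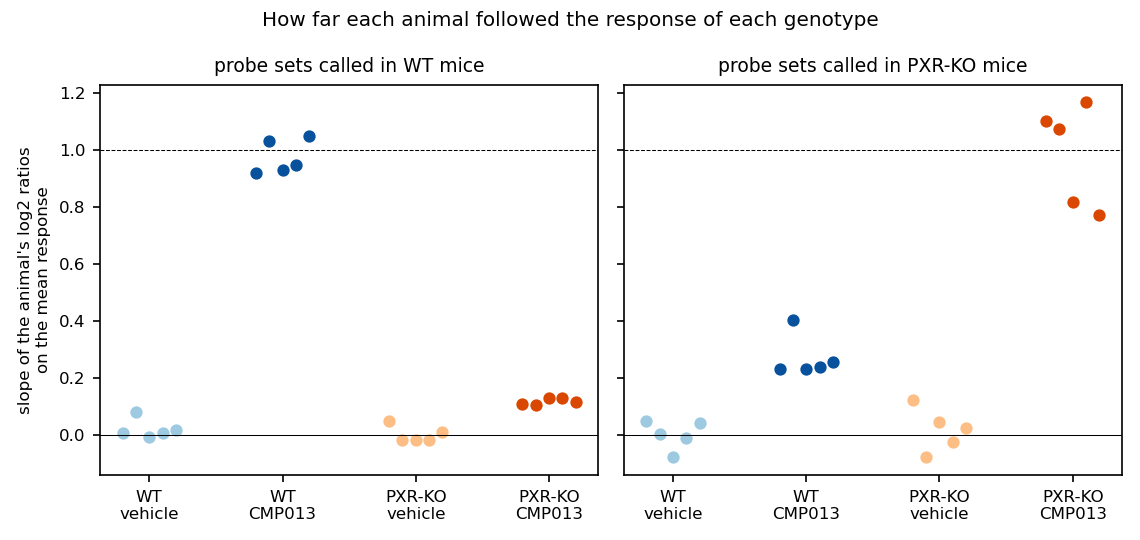
Slope through 0 of each animal's log2 ratios on the mean response of WT mice (left, 6480 probe sets called there) or of PXR-KO mice (right, 1645 probe sets); 1 point per animal, with treated animals of the calling genotype left out of the mean they are set against. Treated PXR-KO animals sit at 0.11 to 0.13 on the left, and treated WT animals at 0.23 to 0.40 on the right.

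Responses that passed in both genotypes in 1 direction were 449 probe sets, and at 400 of them no difference was called. Absence of a call is no proof of equal responses here, because the 95% interval of the difference stayed within 0.32 of 0 at only 31 of the 400. Slco1a4, an organic anion uptake transporter, read 3.36, 3.76, 3.23, 3.69 and 3.51 in treated WT animals and 2.84, 3.23, 2.33, 3.67 and 2.16 in treated PXR-KO animals, so the treated groups overlapped. Its response was 3.72 in WT against 2.82 in PXR-KO mice, with a difference of 0.90 (95% interval 0.01 to 1.80; limma adjusted p = 0.195). Nqo1, a quinone reductase and Nrf2 target, had 1.31 and 0.87 with a difference of 0.45 (limma adjusted p = 0.238). Both were chosen after their values were seen.

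Markers of other cell types were read in the same way, since whole liver holds more than hepatocytes. None of 8 hepatocyte, 7 monocyte and 5 cholangiocyte markers had a called difference. Of 10 Kupffer cell markers 2 differed (20%, against 13.6% of 18193 genes). Marco, a scavenger receptor, rose in PXR-KO mice alone by 4.22, and Vsig4, a complement receptor, had -0.46 in WT against 0.23 in PXR-KO mice. In WT mice 3 of the 10 fell and 0 rose, and in PXR-KO mice 1 rose and 0 fell. Of 10 stellate cell markers 3 differed (30%), Dcn, a matrix proteoglycan, Lrat, which stores retinol as esters, and Hand2, a transcription factor. These 3 fell in WT mice by 0.80, 0.71 and 0.87 with estimates of 0.05, 0.10 and 0.07 in PXR-KO mice. Of 8 sinusoidal endothelial markers 2 differed (25%), Lyve1, a hyaluronan receptor and a gained rise of 1.12, and Clec4g, a lectin and a lost fall of 0.61. Clec4g was not called with the mean over its 2 probe sets (limma adjusted p = 0.275). In WT mice 6 of the 8 fell and 0 rose, and in PXR-KO mice 1 fell and 1 rose. One marker each differed for neutrophils (Cxcr2, of 6, 16.67%), T and NK cells (Cd3e, of 8, 12.5%), B and plasma cells (Mzb1, of 5, 20%) and erythroid cells (Hba-a1, of 3, 33.33%). The shares of these short lists were not tested against the background. The calls at Vsig4, Cxcr2, Cd3e and Hba-a1 did not stand firm, since they were lost without most single animals, with limma adjusted p up to 0.0708, 0.0682, 0.0738 and 0.0735, and all 4 were lost both without the 4 vehicle animals and after quantile normalization. Quantile normalization also lost the calls at Lrat and Clec4g (limma adjusted p = 0.0838 and 0.0965). The call at Mzb1 was lost without WT vehicle replicate 1 or PXR-KO vehicle replicate 2 (limma adjusted p up to 0.054), without the 4 vehicle animals (0.0978) and after quantile normalization (0.2). Median differences of these lists lay between -0.62 for neutrophils and 0.64 for erythroid cells, and the part of cell composition in the results above was not tested.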

How the data were processed

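Liver RNA of 20 mice was hybridised to 1 Affymetrix array each. The deposited values are log10 ratios that the authors computed in Rosetta Resolver, with the average vehicle intensity of the same genotype as the denominator. They are held within a log10 of -2 and 2 (7 values at the limit) and have no intensities, so signal over background is unknown. Ratios were multiplied to the log2 scale and not normalized further. Responses were fitted with limma (version 3.58.1, R 4.3.3) in each genotype, and the difference as an interaction over all 20 arrays, with Benjamini-Hochberg adjustment over 45037 probe sets. The study instead counted, within each genotype, the animals past a fold and platform p limit and set these counts against permuted labels. It compared this method with SAM, a modified t-test run on the log2 intensities of each genotype. The steps were tested on simulated data.

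A probe set was named only where it lists 1 gene (34945 probe sets). Each gene of a list was read from 1 probe set, without the _s_ or _x_ mark where possible and with the smallest vehicle spread. Named genes were Nr1i2, the 5 with the largest difference in each class and direction, and up to 4 per list with the smallest adjusted p. Others were chosen after their values were seen, as list members or otherwise, and some already described genes were left out. The members and lists were chosen with earlier results of these data known. Arrays came from separate animals. Array weights, normalization, the variance prior, a size minimum, a replicate block, probe set averaging and leaving out single animals or 4 vehicle animals were tried as alternatives. Promoter windows came from RefSeq (GRCm38.p6) and were matched by gene.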

Additional observations from a re-analysis of the deposited data

Results flagged for a closer look

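The responses of the genotypes differed, by the interaction test itself, at 4936 probe sets, of which 2992 were lost, 32 weakened, 539 gained, 17 strengthened, 125 reversed and 1231 called in neither genotype alone. Among 72 groups of 5 values checked for an animal far from the rest, 3 held one, where chance gives about 1 in 20. Treated PXR-KO replicate 2 read -0.86 for Ifit1, with the others between -0.39 and -0.22. WT vehicle replicate 2 read -1.45 for Slco1a4, with the others between -0.08 and 0.25. The SD of the log2 ratios over all probe sets was 0.704 in treated WT replicate 5 and between 0.587 and 0.611 in the other treated WT animals.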

How the results depend on the processing

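Of 129 genes described with a called difference, 124 were called in all 20 fits without 1 animal and 91 under every alternative run. Quantile normalization lost 32 of the 129 calls and leaving out the 4 vehicle animals 17, each named above beside its gene. Neither fit can tell a fragile call from the effect of imposing equal spread or of using fewer animals. Quantile normalization gave 1231 differences (59.1% higher in WT mice against 49.9%), with 635 lost, 2 weakened, 169 gained, 3 strengthened, 8 reversed and 414 called in neither genotype, and WT and PXR-KO responses at 1752 and 498 probe sets. Without the 4 vehicle animals the counts were 2544, 1505, 5, 117, 4, 16 and 897 in that order, with responses at 3308 and 363. Replicate numbers did not pair the samples (correlations -0.24 to 0.18 over 30 pairs, 7 over 0.1). A fit with the replicate block gave 3990 differences, 1704 lost, 2 weakened, 48 gained, 6 strengthened, 7 reversed and 2223 called in neither, with responses at 3026 and 119. A variance prior with trend and robust options together left 0 PXR-KO responses in limma (lowest adjusted p 0.0536; 8806 at unadjusted p under 0.05), hence 0 weakened, 0 gained, 0 strengthened and 0 reversed, with 1917 called in neither. The trend alone, added after the data were seen, gave 17 weakened and 10 strengthened responses and lost the call at Cbr3 (limma adjusted p = 0.289). Array weights gave 49 weakened and 28 strengthened responses. Fitting all 4 groups together gave 79 weakened, 310 reversed, 663 called in neither and 3049 PXR-KO responses. Reading a response by a size of 0.32 on the log2 scale instead of its call gave 136 weakened, 37 strengthened and 1218 reversed. Without 1 animal at a time, counts ran from 10 to 36 weakened, 211 to 601 gained, 6 to 27 strengthened, 46 to 130 reversed and 620 to 1728 PXR-KO responses. The PXR-KO count was 620 to 913 without any 1 of PXR-KO vehicle replicates 2 to 5 or PXR-KO CMP013 replicates 1, 2 and 4. Psmb10, not called, turned from -0.01 to 0.007 with arrays set to a common median and ran from -0.064 to 0.057 without 1 animal. The causes of these shifts were not tested. No intensities were used, so what dim probe sets can show is unknown.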
